A study of Gallus gallus with 12 samples.

Results

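The hypothalamus was measured in broilers that had been heated for 24 h and then returned to normal temperature for 24 h. On the mean, 41 microarray probes still lay at least 1.5-fold from the control birds, on the same side as directly after the heat. These 41 probes, called members here, were 0.127% of the 32227 probes that were above background on all 12 arrays, out of 43603 probes besides the controls. A member had all 8 log2 signals of the heat stress group (HS) and the temperature recovery group (TR) above, or all below, the 4 log2 signals of the control group (CL). Its HS mean and its TR mean also each differed from the CL mean by a fold change of at least 1.5 (0.59 on the log2 scale). The members were thus chosen by the measured differences of HS vs. CL and TR vs. CL, which are given below as a description without a test. The rule required HS and TR to lie on the same side of CL, but it did not set HS against TR. HS vs. TR was tested, although the rule had used the same HS and TR values, which its p-values do not allow for. HS and TR were themselves on different slides, so that their difference cannot be told apart from the slide either.

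The 12 birds were full-sib or half-sib female broilers of the line named Anak_40 and 56 d of age when the heat began, and 4 were assigned to each group. HS birds spent 24 h at 34°C, TR birds spent the same 24 h at 34°C followed by 24 h of recovery at 25°C, and CL birds stayed at 25°C throughout. All had been reared at 25°C in a climate chamber with food and water freely available. Each bird's hypothalamus RNA was labelled with cyanine 3 and hybridized to 1 one-colour Agilent chicken array, and the arrays are named here by group and number (HS1 to CL4). Since whole tissue was measured, fewer cells of a type and less RNA per cell cannot be told apart.

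The 3 groups were on 3 different slides, and the scan day of CL differed from that of HS and TR, so that a difference shared by HS and TR from CL cannot be told apart from the slide and the scan day. The sample titles name hypothalamus, but other labels of the same samples name spleen, male sex and a viral infection. HINTW, which lies on the W chromosome of hens, had group means of log2 signal of 17.64 in HS, 17.72 in TR and 17.76 in CL. Of 14 marker genes of hypothalamic neurons, 9 had a named probe and 7 were tested, and CRH was above background on none of the 12 arrays. The log2 of the summed signal of those 7 genes ranged between 16.44 and 18.81 in HS, 11.77 and 16.99 in TR, and 9.42 and 17.70 in CL, with the lowest value on CL2. A list of striated muscle genes had its highest summed signal on CL2 as well, at 16.21, where the other 11 arrays lay between 12.78 and 14.27. Over the 12 arrays, the same sum was between 19.21 and 19.45 for oligodendrocyte genes and between 17.87 and 18.94 for astrocyte genes. It was between 8.76 and 9.64 for lymphoid genes and between 18.08 and 18.38 for microglia and immune genes. The tissue was not tested by these sums. The spots above background numbered 33505 to 36852 an array, and precision is limited by the number of arrays. The part of these differences between arrays in the results below was not tested, apart from the values given without CL2.

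The hypothalamus is the brain region that senses body temperature and sets panting, feeding, water balance and hormone release in birds. During heat, cells also face damaged proteins and oxidized lipids, which chaperones and glutathione enzymes deal with. Return to normal temperature can let such adjustments be undone, and a recovery group can be set against controls to look for genes that have not returned. Whether the members are such genes was not tested, since slide and scan day differed with the group.

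Of the 41 members, 21 were higher than CL in both HS and TR and 20 were lower. The same rule with HS as the group that stood apart chose 204 probes (0.633%), 153 with HS above and 51 with HS below. With TR as the group that stood apart, it chose 30 probes (0.0931%), 14 above and 16 below. Without the limit on the difference, CL stood apart at 483 probes (1.5%), with HS and TR above CL at 170 and below CL at 313. HS then stood apart at 1420 probes (4.41%) and TR at 342 (1.06%). The split of the members depended on single arrays, with 88 higher and 21 lower without TR2, 54 and 29 without CL3, and 54 and 59 without CL1. Leaving out an array also loosens the rule, since fewer signals must not overlap. These counts are set by the rule and by the shared groups, and they were not tested against each other. Among the higher members, the difference from CL was between 0.59 and 2.18 in HS, with a median of 0.94, and between 0.59 and 1.76 in TR, with a median of 0.72. Among the lower members, it was between -1.06 and -0.60 in HS, with a median of -0.78, and between -0.93 and -0.59 in TR, with a median of -0.70. Over all 32227 probes, the median differences were -0.03 for HS and 0.00 for TR.

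Nearest inside the limit among the higher members were A_87_P305013, whose smaller difference from CL was 0.59, and A_87_P013812, also at 0.59. Just outside it were A_87_P060781 and A_87_P018898, both at 0.58. Among the lower probes, A_87_P010915 at -0.59 and A_87_P112248 at -0.60 lay just inside, and A_87_P013787 at -0.58 and A_87_P198903 at -0.56 just outside.

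Most members had a low signal, which is no measure of transcript abundance between probes. Their median log2 signal was 8.58, and 32 of 41 lay below the median level of the probes above background. The brightest was A_87_P257403, an unnamed probe for the transcript ENSGALT00000040997, with a mean log2 signal of 14.57. The median standard deviation over the 4 arrays of a group among the members was 0.20 for HS and for TR, and 0.26 for CL. Over all probes above background on all 12 arrays it was 0.186, 0.16 and 0.189 for HS, TR and CL. Of the 41, 9 could be given a gene name (22%, where 26.8% of the probes above background on all 12 arrays could). Another 13 carried an Ensembl transcript identifier without a name in the reference table, and 19 another identifier.

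Medians over the members by array are a description, since the rule placed every treated bird on one side of CL. Over the 21 higher members, the median difference from the CL mean was between 0.84 (HS1) and 1.10 (HS3) on the HS arrays and between 0.66 and 0.89 (TR1) on the TR arrays. Over the 20 lower members, it was between -0.91 (HS4) and -0.57 (HS1) on the HS arrays and between -0.79 (TR2) and -0.58 (TR1) on the TR arrays. HS1 was the nearest to CL of the HS arrays in both sets. Among the CL arrays, medians over the higher members were between -0.20 (CL2) and 0.23 (CL3), and over the lower members between -0.19 (CL4) and 0.17 (CL2), so that CL2 lay farthest from the treated birds in both sets. Without CL2, 15 of the 21 higher and 12 of the 20 lower members still passed the rule, with median differences of 0.85 and 0.73 for HS and TR among the higher and -0.72 and -0.66 among the lower.

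GSTA4 is a glutathione S-transferase that conjugates glutathione to products of lipid peroxidation. Its member probe A_87_P134778 had log2 signals of 10.59, 10.36, 10.79 and 11.35 on HS1 to HS4, 11.61, 11.91, 10.71 and 11.15 on TR1 to TR4, and 9.80, 9.17, 10.35 and 9.99 on CL1 to CL4. The mean was 1.92-fold the CL mean in HS and 2.86-fold in TR, and the highest CL array lay 0.01 below the lowest HS array. TR was thus farther from CL than HS was, although HS and TR overlapped and HS minus TR was -0.57 (SE 0.31, 95% interval -1.26 to 0.11, limma adjusted p = 0.385).

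CHAC2 breaks down glutathione as a gamma-glutamylcyclotransferase. Its probe A_87_P036073 gave 6.27, 6.70, 6.66 and 6.68 on the HS arrays, 6.30, 5.89, 6.81 and 5.89 on the TR arrays, and 5.26, 5.36, 5.39 and 5.40 on the CL arrays. The CL birds were close together (SD 0.06, n = 4), and the gap of 0.49 between CL and the nearest treated bird was the widest among the higher members. The mean log2 signal of the CHAC2 probe, 6.05, was the lowest of the members, at percentile 1.5 of the probes above background. The part of this low signal in the spread and the gap was not tested. The fold over CL was 2.34 in HS and 1.83 in TR, and with normexp background correction the log2 differences fell from 1.23 and 0.87 to 0.56 and 0.34, which left CHAC2 outside the rule. HS exceeded TR by 0.36 (SE 0.19, 95% interval -0.05 to 0.77, limma adjusted p = 0.371), with the TR birds split between 2 near 5.89 and 2 at 6.30 and 6.81.

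ACE, the angiotensin-converting enzyme, makes angiotensin II, a peptide that stimulates drinking. Its log2 signals were 8.83, 8.91, 8.99 and 9.08 in HS, 8.46, 8.41, 8.77 and 9.30 in TR, and 8.02, 7.62, 8.35 and 8.24 in CL. The HS birds were tight (SD 0.11) and the TR birds spread more widely (SD 0.41), with TR4 above every HS bird and TR2 only 0.06 above the highest CL bird. The mean was 1.86-fold CL in HS and 1.60-fold in TR, and HS minus TR was 0.22 (SE 0.20, 95% interval -0.22 to 0.67, limma adjusted p = 0.625). Without CL2, the TR difference was 0.53 and ACE no longer passed the rule.

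BVES, a membrane protein of the Popeye family that binds cyclic AMP, gave 11.27, 11.18, 11.14 and 11.28 in HS, 11.39, 11.25, 11.03 and 11.37 in TR, and 10.95, 10.41, 10.55 and 10.43 in CL. Its fold over CL was 1.55 in HS and 1.60 in TR. HDAC7, a class IIa histone deacetylase, gave 11.81, 11.78, 11.77 and 11.92 in HS, 12.09, 11.84, 11.77 and 11.99 in TR, and 11.60, 11.11, 11.22 and 10.87 in CL, with folds of 1.54 and 1.65. At both probes the HS and TR birds overlapped, and CL1 was the CL bird nearest to them. HS minus TR was -0.04 for BVES (95% interval -0.32 to 0.24) and -0.10 for HDAC7 (95% interval -0.41 to 0.20), so that a difference of 1.5-fold lay outside both intervals. BVES left the rule without CL2, at 0.57 in HS, and HDAC7 with normexp, at 0.56 in HS. Across the 12 arrays the probes of BVES and HDAC7 had a Pearson r of 0.977, and 0.904 after the group means were taken out. This is a description over arrays that share slides. The rule itself raises the r over the 12 arrays. The pair was given because it was among the most alike of all pairs of members, so nothing is read from its r.

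Of the named members, 4 were lower than CL. MYH7, a myosin heavy chain of slow and cardiac muscle, had log2 signals of 8.09, 7.96, 7.94 and 8.16 in HS, 8.19, 8.01, 7.92 and 8.16 in TR, and 8.86, 9.34, 9.11 and 8.25 in CL. HS and TR were nearly level, with a difference of -0.04 (95% interval -0.45 to 0.38), and the CL birds ranged from just above them (CL4) to well above (CL2). The difference from CL was -0.85 in HS and -0.82 in TR with all arrays, and -0.70 and -0.67 without CL2, where the striated muscle list was high. MYH7 had 3 other probes, above background on 5, 6 and 11 arrays, and their log2 signals on CL2 were 9.67, 6.56 and 9.29, the highest of the 12 arrays for each. Of the 6 striated muscle genes with a named probe, 4 were tested, and MB and TNNT2 were above background on 3 and 2 arrays. The other tested genes did not share the level HS and TR of MYH7, and none was DE. TNNC1 differed from CL by -0.56 in HS and -0.23 in TR, ACTC1 by -0.72 and -4.64, and MYL1 by 0.05 and -3.81. ACTC1 and MYL1 were above background on 9 and 10 arrays.

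PLD1, phospholipase D, makes the signalling lipid phosphatidic acid from membrane phosphatidylcholine. It gave 9.65, 9.61, 9.30 and 9.24 in HS, 9.49, 9.59, 9.53 and 9.51 in TR, and 10.25, 10.49, 10.26 and 10.00 in CL, a gap of 0.35 between CL and the treated birds. The TR birds were almost identical (SD 0.04), and the mean was 1.74-fold lower than CL in HS and 1.64-fold lower in TR. HS minus TR was -0.08 (95% interval -0.35 to 0.18).

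TSSC4, known in human cells as an assembly factor of the U5 particle of the spliceosome, gave 10.12, 9.72, 9.97 and 9.98 in HS, 10.13, 9.88, 10.01 and 10.38 in TR, and 10.66, 10.62, 10.87 and 10.69 in CL. It was 1.70-fold lower than CL in HS and 1.53-fold lower in TR, and TR4 was the treated bird nearest to CL. FAM71D gave 8.76, 8.84, 8.75 and 8.84 in HS, 9.09, 9.03, 8.89 and 8.84 in TR, and 9.61, 9.99, 9.56 and 9.16 in CL, with folds of 1.72 and 1.53, and left the rule without CL2, at -0.48 in TR. Both genes lay slightly nearer to CL in TR than in HS, by differences of -0.15 (95% interval -0.42 to 0.11) for TSSC4 and -0.17 (95% interval -0.48 to 0.15) for FAM71D that were within the error.

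The 2 members with the largest smaller-of-both difference from CL carry no gene name. A_87_P011772 gave 10.40, 10.31, 11.16 and 10.94 in HS, 10.76, 9.97, 10.92 and 9.64 in TR, and 8.57, 8.19, 9.59 and 8.97 in CL, which is 3.66-fold CL in HS and 2.82-fold in TR. A_87_P257528, designed for the transcript ENSGALT00000011346, followed it closely over the 12 arrays, with folds of 3.49 and 2.80. The Pearson r was 0.994, which the rule itself raises, and 0.977 after the group means were taken out. This pair too was among the most alike of all pairs of members, so nothing is read from its r. Another probe of ENSGALT00000011346, A_87_P008694, was above background on 9 arrays and differed from CL by 1.59 in HS and 1.86 in TR. Its groups overlapped, since CL3 at 5.99 lay above HS2 at 5.80 and TR4 at 5.76.

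A_87_P119353 had the largest TR difference of the members. Its log2 signals were 8.88, 8.71, 9.19 and 9.66 in HS, 9.46, 9.68, 9.92 and 9.48 in TR, and 7.67, 7.67, 8.51 and 7.62 in CL, and the fold over CL was 2.36 in HS and 3.40 in TR. HS minus TR was -0.53 (SE 0.24, 95% interval from -1.05 to just below 0, limma adjusted p = 0.302), with HS4 inside the TR range. Among the lower members, A_87_P071396 (ENSGALT00000007973) stood farthest from CL in TR together with A_87_P020678, at -0.93 each. A_87_P071396 gave 6.73, 6.36, 6.59 and 6.51 in HS, 6.60, 6.70, 6.41 and 6.97 in TR, and 7.62, 7.56, 7.59 and 7.61 in CL. Its CL birds were the most alike of any member (SD 0.03), and its gap of 0.60 to the nearest treated bird was the widest of the 41.

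Among the other higher members, A_87_P106353 (ENSGALT00000015837) gave 10.10, 10.32, 10.30 and 9.78 in HS, 10.04, 10.22, 10.53 and 10.32 in TR, and 9.60, 8.68, 9.05 and 9.47 in CL. HS and TR were nearly level there, at 1.90-fold and 2.11-fold CL, and CL2 was the lowest bird. A_87_P257403, the member with the highest signal, gave 14.87, 15.09, 15.36 and 14.88 in HS, 14.79, 14.63, 14.91 and 14.34 in TR, and 13.77, 13.90, 14.31 and 14.05 in CL. Its fold over CL was 2.06 in HS and 1.58 in TR, with TR4 only 0.03 above CL3. At A_87_P305013, nearest to the limit in HS, the birds gave 9.34, 9.22, 9.18 and 9.14 in HS, 9.91, 9.64, 9.22 and 9.13 in TR, and 8.93, 8.65, 8.66 and 8.31 in CL. The TR birds were split, with TR1 and TR2 above every HS bird and TR3 and TR4 level with them.

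Among the other lower members, A_87_P061776 (ENSGALT00000041210) gave 8.06, 8.08, 7.75 and 7.81 in HS, 8.20, 8.17, 7.96 and 8.16 in TR, and 8.79, 9.25, 8.96 and 8.92 in CL, a gap of 0.59 between CL and the treated birds. It had the largest HS difference of the lower members, at -1.06. A_87_P020678 (ENSGALT00000031488) gave 8.22, 8.35, 7.80 and 7.94 in HS, 7.90, 8.15, 7.76 and 7.89 in TR, and 8.87, 9.24, 8.69 and 8.64 in CL, and was among the 5 lower members with TR farther from CL than HS. A_87_P156783 gave 9.56, 9.55, 9.52 and 9.39 in HS, 9.53, 9.42, 9.53 and 9.45 in TR, and 10.12, 10.25, 10.11 and 9.94 in CL. Its difference from CL was small, at -0.60 and -0.62, but the birds of each group lay close together (SD 0.08, 0.06 and 0.13 in HS, TR and CL).

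HS vs. TR was then tested in a limma fit over all probes, in which a probe was DE (differentially expressed) when it had a fold change over 1.5, p under 0.05 and an FDR under 0.15. Of the 41 members, 2 were DE in HS vs. TR, where 1.43% of the 32217 probes above background on all 12 arrays and tested were DE (1.05% higher and 0.385% lower in HS). Both belonged to the higher members and were higher in HS. At p under 0.05 alone, 6 members passed, all of them higher members, and of the 20 lower members 0 passed, where 15.7% of all probes above background passed, a share close to that of the members. By the methods' t-test, 1 member was DE, also a higher one, and 0.733% of all probes tested. HS and TR arrays did not overlap at 3 of 41 members, against 11.1% of all probes above background. The share of members DE in HS vs. TR rests on 2 probes and was not set apart from the background by a test. The rule used the same HS and TR values, so these p-values and counts describe selected probes, and nothing is read from their distance to the background.

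A_87_P013812 gave 7.64, 7.55, 7.65 and 7.69 in HS, 6.20, 5.89, 5.94 and 6.13 in TR, and 5.41, 5.32, 5.68 and 5.39 in CL. The 3 groups were separate, with HS far above TR and TR 0.21 above the highest CL bird. HS exceeded TR by 1.59 (SE 0.10, 95% interval 1.37 to 1.81, limma adjusted p = 5.29e-05). Each of the 4 HS birds lay above each of the 4 TR birds. The HS mean was 4.54-fold CL, the largest of the members, and 27.0% of that log2 difference was left in TR. The probe was dim, with a mean log2 signal of 6.37, at percentile 3.6 of the probes above background. The part of this low signal in the share left in TR was not tested. The TR difference from CL was 0.54 without CL2, 0.47 with scaling to the 75th percentile and 0.29 with normexp, each under the limit of the rule. HS minus TR was 0.98 with normexp (limma adjusted p = 0.000131).

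A_87_P008988 gave 7.24, 6.84, 7.70 and 7.40 in HS, 6.95, 5.93, 5.75 and 6.26 in TR, and 5.37, 5.74, 5.46 and 5.63 in CL. TR1 lay within the HS range, and TR3 lay 0.01 above the highest CL bird. This probe was dim as well, with a mean log2 signal of 6.35, at percentile 3.5 of the probes above background. The part of this low signal in the values below was not tested. HS exceeded TR by 1.07 (SE 0.25, 95% interval 0.53 to 1.62, limma adjusted p = 0.0794), with 38.5% of the HS difference left in TR. The call was lost without HS3, HS4, TR2, TR3 or TR4, at differences of 0.94, 1.04, 0.97, 0.91 and 1.09 with limma adjusted p between 0.168 and 0.188. With normexp it was DE at 0.69, and the TR difference from CL was then 0.33.

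Another 4 members passed p under 0.05 without being DE. A_87_P304388 gave 8.89, 9.15, 9.13 and 9.03 in HS and 8.66, 8.73, 8.59 and 8.69 in TR, without overlap, and the difference was 0.38 (limma adjusted p = 0.205). A_87_P080071 differed by 0.52 (limma adjusted p = 0.216) and A_87_P257403 by 0.39 (limma adjusted p = 0.262), and A_87_P119353, given above, was the one with TR above HS. At A_87_P010915, a lower member, HS and TR did not overlap either, at 10.04 to 10.17 in HS and 10.19 to 10.33 in TR, with a difference of -0.15 (95% interval -0.47 to 0.16).

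The 95% interval of HS minus TR bounds the difference between these arrays, slide included. It included 0 at 35 of 41 members, 15 of the 21 higher and all 20 lower, and it lay within a 1.5-fold change either way at 23 members, 4 higher and 19 lower. At these 23 a change between HS and TR of more than 1.5-fold lay outside the interval, and the interval of the others reached beyond it. The count of 23 was not set beside the share over all probes, so nothing is read from it. HS was farther from CL than TR in 28 members and TR was farther than HS in 13. The median share of the HS difference left in TR was 88.8%, from 27.0% to 161%. The split depended on the scaling and was not set beside that of all probes. With scaling to the 75th percentile, the median difference of the lower members from CL was -0.76 in HS and -0.76 in TR. Among the lower members, HS minus TR was closest to 0 at A_87_P112248 (-0.01, 95% interval -0.25 to 0.23). It was widest in error at A_87_P016879 (-0.26, 95% interval -0.89 to 0.37), whose HS2 value of 6.99 lay below 7.61 to 8.24 on the other HS arrays. Both differences had to pass the same limit on the same side of CL, which can favour members with a small difference between HS and TR. The intervals do not allow for this choice. These intervals and shares thus describe the members and do not measure recovery over all genes.

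In the same fit, 40 of the 41 members were DE between HS and CL, and 13 of these also between TR and CL. Over the probes above background on all 12 arrays, 2.86% were DE between HS and CL and 0.0745% between TR and CL. The rule used both comparisons, so nothing is read from these counts. By the rule, the arrays did not overlap even where TR vs. CL was not DE.

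Other probes of the same gene or transcript gave a reading that the rule did not use, although on the same birds and slides. There were 23 such probes for 14 members, and 13 of them, for 10 members, were above background on all 12 arrays. None of the 13 passed the rule's limit in both groups, and 11 had both differences in the member's direction, 7 of 7 for higher members and 4 of 6 for lower ones. Both differences share the CL arrays, and the count was not set beside the share over all probes, so nothing is read from it. The second probe of BVES, A_87_P140818, differed from CL by 0.44 in HS and 0.65 in TR, and that of CHAC2, A_87_P052181, by 0.80 and 0.34. For ACE, A_87_P256458 gave 0.49 and 0.31, and for HDAC7, A_87_P280833 gave 0.63 and 0.27. All 4 second probes lay on the member's side of CL in both groups, and nearer to it except that of HDAC7 in HS, at 0.63 against 0.62. A_87_P099517 and A_87_P301148, also of BVES, were above background on only 5 and 2 arrays. They differed from CL by 0.71 and -0.14 in HS and by 1.38 and 1.21 in TR. A_87_P157158 of FAM71D, above background on 0 arrays, differed by 0.17 in HS and 0.13 in TR, opposite to its member.

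Of the other probes above background on all 12 arrays, those of GSTA4 had the largest differences between HS and TR. A_87_P149778 gave 11.72, 11.18, 11.12 and 11.67 in HS, 12.91, 12.55, 11.94 and 11.86 in TR, and 11.02, 11.19, 11.61 and 10.78 in CL. It lay 0.27 above CL in HS and 1.17 above CL in TR, and HS minus TR was -0.89 (SE 0.26, limma adjusted p = 0.138), DE and without overlap. A_87_P037870 lay 0.06 above CL in HS and 0.89 in TR, and was not DE in HS vs. TR (-0.83, SE 0.29, limma adjusted p = 0.201). All 3 GSTA4 probes were thus highest in TR on the mean, and at the other 2 probes HS was close to CL.

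Among the lower members, MYH7 had 3 other probes, above background on fewer than 12 arrays. They differed from CL by -1.89 to -1.59 in HS and -1.15 to -0.70 in TR. These differences include CL2, the highest array at each, and the TR and CL arrays overlapped at all 3. A_87_P053536 gave 4.76, 3.75 and 3.57 on CL1, CL3 and CL4, where the TR arrays gave 3.66 to 5.07. The other probes that were above background on all 12 arrays lay nearer to CL than their lower members. The second probe of TSSC4, A_87_P053636, differed from CL by 0.03 in HS and -0.08 in TR. For ENSGALT00000012245, whose member A_87_P243798 differed by -0.84 and -0.80, the 4 other probes, 3 of them above background on all 12 arrays, differed by -0.21 to 0.01 in HS. Probes of a transcript can sit on different exons or ends, and which part each of these covers was not analysed here.

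The named members were also set against gene lists, on which the 32 unnamed members could not stand. Of 785 probes of listed genes above background on all 12 arrays, 2 were members (0.255%), where 0.127% of all such probes were. Over all probes tested, the share DE was 3.57% for HS vs. CL, 1.85% for HS vs. TR and 0.0945% for TR vs. CL. Of 15 pathway lists and 12 lists of cell type markers, the list of chromatin and histone genes held 1 member (HDAC7) and the striated muscle list 1 (MYH7), and GSTA4, CHAC2, ACE, BVES, PLD1, TSSC4 and FAM71D stood on none. Among 20 tested chromatin genes, 2 were DE and higher in HS vs. CL, HDAC7 and HDAC9. HDAC7 had been chosen by the rule for that difference, so nothing is read from its call. HDAC9, a related class IIa deacetylase, differed by 0.99 (limma adjusted p = 0.129). None was DE in HS vs. TR or TR vs. CL (3 and 2 at p under 0.05 in limma). HDAC9 lay between the groups in TR, at 7.59 against 8.18 in HS and 7.19 in CL. The class IIa gene HDAC4 had means of 12.88, 12.78 and 12.75 in HS, TR and CL.

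The oxidative stress list, whose genes work beside GSTA4 and CHAC2, had 14 tested genes. Of these, 1 was DE in HS vs. CL, with HS lower. It was HMOX1, which breaks down heme, at -0.71 (limma adjusted p = 0.114). In HS vs. TR and TR vs. CL, 0 were DE (2 and 0 at p under 0.05 in limma, and 0 in HS vs. TR by the methods' t-test). The list's median difference from CL was 0.03 in HS and -0.01 in TR. The list of heat shock and protein folding genes held 0 members among 37 tested genes, with 0 DE in any comparison by limma and 4, 1 and 0 at p under 0.05 against CL in HS, in HS vs. TR, and against CL in TR. Its median differences were 0.04 and 0.01 from CL in HS and TR.

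The array also carries probes for spike-in control RNA, which does not come from the birds, and these were placed on the same normalization curve. Of 10 controls, 8 were above background on all 12 arrays, and 0 of them passed the rule. Their differences from CL had a median of -0.34 in HS and -0.32 in TR, between -0.41 and -0.11 and between -0.40 and -0.12, with the arrays of CL overlapping the others. CL2 was the highest of the 12 arrays in 7 of the 8 controls, and without it the medians were -0.19 in HS and -0.18 in TR. With all arrays, control RNA thus differed from CL in the direction of the lower members, by less than the limit of 1.5-fold, and the part of this in the members was not tested.

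The scaling of the arrays moved the split of the members. When arrays were scaled to their 75th percentile, 45 probes passed the rule, 13 higher and 32 lower, so that 28.9% were higher where quantile normalization gave 51.2%. Of the 41 members, 32 were kept, 13 of the higher and 19 of the lower. With normexp background correction, 21 probes passed, 52.4% of them higher, and 18 of the 41 were kept. All 41 kept the direction of both differences under both settings, and the median difference of all probes from CL was within 0.04 of 0.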

How the data were processed

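Hypothalamus RNA of 12 birds was measured on one-colour arrays. The authors read the scans with Feature Extraction 10.7.3.1. The deposited array files hold a processed intensity per spot, background-subtracted but not scaled between arrays, and a mark for spots above background. A deposited series table holds log2 values after the authors' quantile normalization, with a median of 8.797 on every array. Its entries were matched to features by their values (99.95% of 43606) and used as an alternative.

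The processed intensities were taken to log2, quantile-normalized over all spots besides the controls, and then averaged per probe, which gave 43603 probes. Members were chosen by the rule given above. HS vs. TR was tested with limma 3.58.1 in R 4.3.3 on the 3 groups, over probes above background throughout at least 1 group, after outlier spots were left out, with Benjamini-Hochberg adjustment over all 34919 probes tested. The step was tested on simulated data. The p-values rest on 4 birds a group. The members, gene lists and comparisons were chosen with earlier results of these data known. All 9 members whose accession matched 1 gene were described by name. Unnamed members were taken from the 12 largest in a direction, the 5 with the largest HS vs. TR difference, or those nearest to the limit. Not every such probe was described, and A_87_P156783 was described outside these groups. Members with a flagged array are given besides. Accessions were matched to the chicken genes of the assembly GRCg7b, which named 10185 probes for 4814 genes. Probe positions and sequences were not used here. Tables were handled with pandas 2.3.3 in Python 3.11.15.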

Additional observations from a re-analysis of the deposited data

Results flagged for a closer look

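In 8 of the 123 groups of 4 arrays (41 members in 3 groups), 1 array lay apart from the other 3, with a gap past Dixon's 95% critical value, which chance gives in about 1 in 20 groups. The log2 signal of A_87_P119353 was 8.51 on CL3, above 7.62 to 7.67 on the other CL arrays, and A_87_P077106 was 7.50 on CL3, above 6.77 to 6.86. A_87_P136643 was 7.14 on CL4, below 8.30 to 8.51, A_87_P112248 was 9.32 on CL4, below 9.75 to 9.82, and A_87_P098096 was 10.50 on CL1, below 10.69 to 10.72. Among the treated birds, CHAC2 was 6.27 on HS1, below 6.66 to 6.70, A_87_P016705 was 6.40 on HS4, below 6.83 to 6.90, and A_87_P155358 was 6.49 on TR2, below 6.82 to 6.87.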

How the results depend on the processing

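The number of probes passing the rule, 41, was 21 with normexp, 62 with probes above background in at least 1 group, and 3 with a limit of 1 on the log2 scale. It was 45 with scaling to the 75th percentile, 42 with the deposited log2 table, and 41 with outlier spots left out or with 1 spot per array above background, the last of these chosen after seeing the data. Leaving out 1 array gave 42 to 113, and between 27 (without CL2) and 41 (without HS2) of the 41 were kept. The count was 113 without CL1, 109 without TR2, 83 without CL3, 80 without CL4 and 65 without TR1. Each such run loosens the rule, since fewer signals must not overlap. The 2 members DE in HS vs. TR became 1 with FDR under 0.05, with only the HS and TR arrays in the fit, and by the t-test. They became 1 to 3 with 1 array left out (1 without HS3, HS4, TR2, TR3 or TR4, and 3 without HS1). A_87_P013812 was DE under all 23 alternatives, A_87_P008988 was lost under 8 of them, and A_87_P080071 was DE with scaling to the 75th percentile (0.65, limma adjusted p = 0.107) and without HS1 (0.62, limma adjusted p = 0.147). HS minus TR was followed through the alternatives at A_87_P013812, A_87_P008988, A_87_P080071 and some other members, and its sign did not turn there. At members where HS and TR were nearly level, it could turn. MYH7 differed from CL by -0.85 in HS and -0.82 in TR, and by -0.83 and -0.87 with scaling to the 75th percentile. The birds were not treated as paired by replicate number. Correlations of same-numbered arrays were between -0.148 and 0.335, and 0 of 12 arrays correlated best with their own number in both other groups. With so few arrays this cannot exclude a pairing. The replicate block left 2 members DE and 521 of all probes, where 647 were DE without it. Apart from the loosened rule, the causes of these changes were not tested. Of the members, 32 lay below the median level of probes above background, and how signal bears on the calls was not tested.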
